A study of Mus musculus with 21 samples.

Results

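The effect of noggin on prostaglandin-driven gastric tumors was read from 6 of the 21 arrays of the series, namely the 3 arrays of K19-Nog/C2mE mice and the 3 arrays of K19-C2mE mice, chosen by the genotype in the sample labels, and across all genes. Both groups carry the C2mE transgenes, which are COX-2 (Ptgs2) and microsomal prostaglandin E synthase-1 (Ptges), and K19-Nog/C2mE mice carry noggin (Nog) in addition, so that C2mE is common to the tumors compared here. Each transgene was placed under the K19 promoter, which directs it to the stomach. All mice were labelled as female C57BL/6 aged 18 to 65 weeks, 1 glandular stomach was hybridised per array, and no age was given per mouse, so that age and genotype cannot be told apart. The 2 K19-Nog arrays, noggin without C2mE, and the 3 wild-type arrays served for a side-by-side reading of noggin outside the tumors.

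Noggin is a secreted antagonist that binds bone morphogenetic proteins (BMPs) and keeps them from their receptors. BMP receptors phosphorylate Smad proteins, which enter the nucleus and induce genes such as the Id family, whose products restrain differentiation, and inhibitory Smads that feed back on the pathway. In the stomach, BMP ligands act on the glandular epithelium, and loss of BMP signalling in the digestive tract of mice and humans is associated with juvenile polyposis. Keratinised squamous epithelium, which recurs among the genes that changed, lines the mouse forestomach, which adjoins the glandular stomach.

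Values are log2 of the deposited signal of each probe set, an RMA summary of a gene's probes on the array, and a change is the mean of K19-Nog/C2mE minus the mean of K19-C2mE, so that a negative change is lower in K19-Nog/C2mE. A probe set was called at an adjusted p under 0.05 (limma, Benjamini-Hochberg over all 45037 probe sets), and each gene was read at its brightest probe set. The correlation of log2 signals ranged over 0.983 to 0.993 within K19-Nog/C2mE, over 0.99 to 0.991 within K19-C2mE and over 0.972 to 0.986 between the genotypes. Mean log2 signal of the 3 Y-linked genes measured was 3.51, 3.58 and 3.49 on the K19-Nog/C2mE arrays and 3.59, 7.06 and 7.44 on the K19-C2mE arrays, and Xist was 12.98, 12.69 and 12.65 in K19-Nog/C2mE against 11.68, 6.18 and 6.40 in K19-C2mE. Replicates 2 and 3 of K19-C2mE therefore carried Y-linked signal against their label, as did 9 of the 21 arrays in all, including 2 of the 3 wild-type arrays, and results are given with and without these 2 K19-C2mE arrays, the Y-positive pair. K19-Nog/C2mE replicate 3 stood apart from its group in several secretory and leukocyte genes, and 507 genes were called without it. Glandular markers were present in both genotypes: Gkn1, a secreted gastrokine of surface mucous cells, was 15.04, 15.03 and 15 in K19-Nog/C2mE against 15.07, 14.98 and 15.05 in K19-C2mE. Tff1, a trefoil peptide of the same cells, was 15.28, 15.23 and 15.24 in K19-Nog/C2mE against 15.25, 15.23 and 15.23 in K19-C2mE, and neither gene passed the test. Both genes lay near the top of the signal scale in every genotype, so their likeness says little about the amount of glandular tissue. The surface mucin Muc5ac changed by -1.54 (adjusted p = 0.461).

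The addition of noggin to C2mE was accompanied mainly by loss of expression when read by gene. Of 18193 genes, 464 were lower (2.55%) and 137 were higher (0.753%) in K19-Nog/C2mE than in K19-C2mE. The falls were also the larger changes: 102 genes were lower by more than 2 on the log2 scale and 39 by more than 4, while 12 genes were higher by more than 1 and none by more than 2. The arrays of the genotypes did not overlap for 435 of the 464 lower genes and 133 of the 137 higher genes. A call itself favours such separation, and its share over all genes was not counted, so these counts add no support to the calls. The median change over all genes was -0.0028. At the level of probe sets, 2154 of 45037 were called (4.78%), with 1019 higher (2.26%) and 1135 lower (2.52%). Without the 2 K19-C2mE arrays that carried Y-linked signal, 201 genes were called, of which 166 were among the original calls, and the 201 comprised 20 higher and 181 lower genes, with the single K19-C2mE array left assumed to vary like the other arrays. Of 71 called genes named here, 29 kept their call without those 2 arrays and none changed sign. Without K19-C2mE replicate 3 alone, 249 genes were called, and without K19-Nog/C2mE replicate 1 alone, 388. With the level of squamous epithelium genes on each array as a covariate, a level that does not overlap between the genotypes, 3 genes were called, 2 of them among the original calls.

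**Figure D1:**
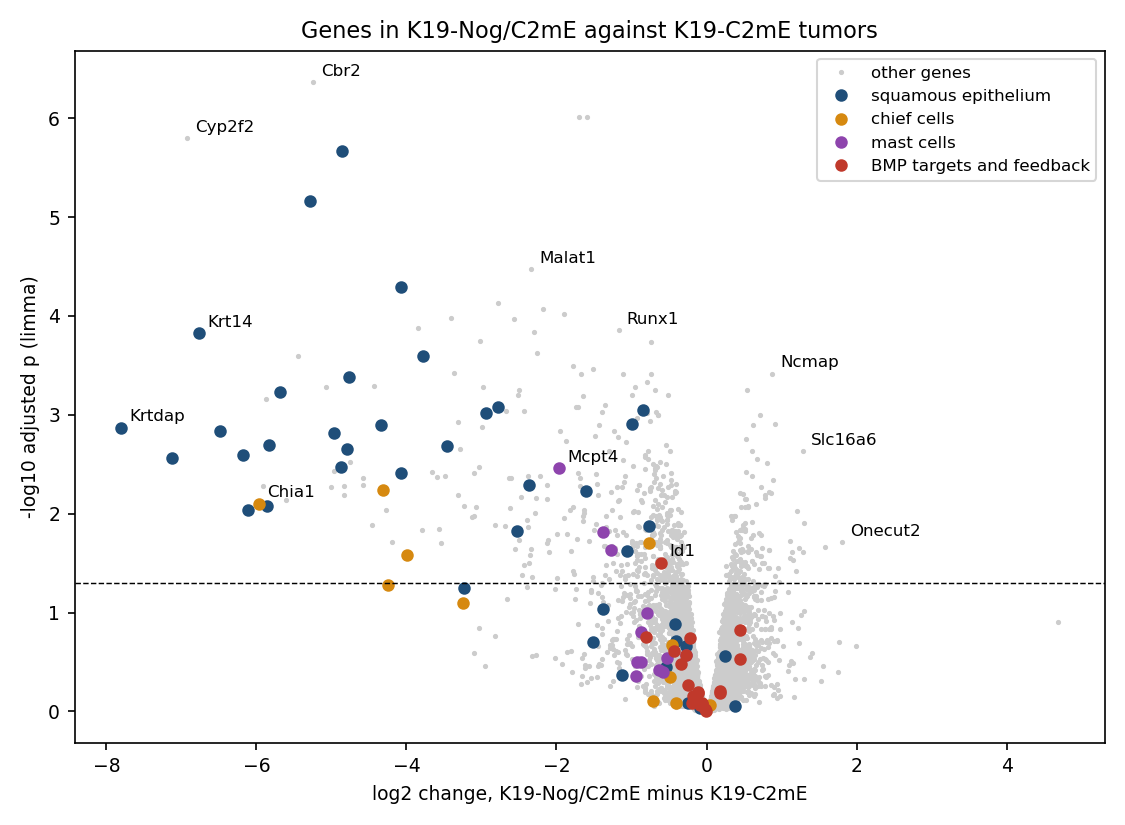
Each point is a gene, with the log2 change (K19-Nog/C2mE minus K19-C2mE) on the x axis and -log10 of the adjusted p on the y axis, and a dashed line at an adjusted p of 0.05. Members of 4 gene lists are coloured, and the squamous epithelium list holds most of the largest falls, with Krtdap at -7.80.

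Keratins and other genes of stratified squamous epithelium made up most of the largest falls. Of 41 measured members of the squamous epithelium list, 29 were lower in K19-Nog/C2mE, none was higher and 12 did not pass the test, beside 2.55% lower of all genes. The median change was -3.23 against -0.0028 over all genes. Krtdap, which encodes a secreted protein of differentiating keratinocytes, gave 3.96, 3.96 and 4.05 in K19-Nog/C2mE against 12.24, 10.09 and 13.03 in K19-C2mE, and its change of -7.80 (SE 1.27, adjusted p = 0.00135), or 223-fold lower, was the largest of any gene called. Rptn, which encodes the cornified envelope protein repetin, gave 3.34, 3.33 and 3.47 in K19-Nog/C2mE against 10.87, 8.67 and 11.96 in K19-C2mE, a change of -7.12 (SE 1.27, adjusted p = 0.00271). For both genes the K19-Nog/C2mE arrays were nearly alike, every K19-C2mE array lay far above them, and K19-C2mE replicate 2 was the lowest of its group. Rptn was called at 1 of its 3 probe sets, which ranged over -7.12 to -0.05.

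The promoters of the squamous genes Krtdap, Rptn and Krt14 are printed beside those of Chia1, Cyp2f2 and Cbr2, which lie outside the squamous list, to show the start regions of 6 genes with large falls. The windows run from 250 bases before to 50 bases after the RefSeq start site on the gene's strand, in build GRCm38.p6, and capitals mark each match to TATAAA on the strand shown. Krtdap lies at chr7:30787655-30787954 on the + strand, Rptn at chr3:93393449-93393748 on the + strand, Krt14 at chr11:100205981-100206280 on the - strand, Chia1 at chr3:106113132-106113431 on the + strand, Cyp2f2 at chr7:27119705-27120004 on the + strand and Cbr2 at chr11:120731972-120732271 on the - strand.
Krtdap: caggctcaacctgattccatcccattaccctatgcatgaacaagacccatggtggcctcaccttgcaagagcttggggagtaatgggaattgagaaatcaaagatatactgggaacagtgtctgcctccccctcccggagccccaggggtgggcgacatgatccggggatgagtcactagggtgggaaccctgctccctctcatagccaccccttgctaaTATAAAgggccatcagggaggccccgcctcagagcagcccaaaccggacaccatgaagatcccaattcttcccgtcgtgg
Rptn: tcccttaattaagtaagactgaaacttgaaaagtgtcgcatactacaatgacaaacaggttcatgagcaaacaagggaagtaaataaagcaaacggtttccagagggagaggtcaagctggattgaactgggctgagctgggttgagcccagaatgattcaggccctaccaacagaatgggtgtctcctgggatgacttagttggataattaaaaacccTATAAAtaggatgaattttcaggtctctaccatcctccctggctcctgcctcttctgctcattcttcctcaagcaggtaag
Krt14: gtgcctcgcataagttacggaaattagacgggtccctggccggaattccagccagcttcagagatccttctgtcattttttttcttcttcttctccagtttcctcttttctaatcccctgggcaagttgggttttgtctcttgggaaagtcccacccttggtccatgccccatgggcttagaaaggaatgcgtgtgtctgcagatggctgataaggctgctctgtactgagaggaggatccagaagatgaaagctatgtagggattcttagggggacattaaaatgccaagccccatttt
Chia1: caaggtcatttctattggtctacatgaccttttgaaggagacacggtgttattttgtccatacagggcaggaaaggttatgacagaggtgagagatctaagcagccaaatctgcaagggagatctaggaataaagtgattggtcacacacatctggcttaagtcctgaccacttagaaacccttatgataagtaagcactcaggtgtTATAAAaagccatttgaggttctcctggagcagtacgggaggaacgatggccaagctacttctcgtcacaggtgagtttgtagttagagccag
Cyp2f2: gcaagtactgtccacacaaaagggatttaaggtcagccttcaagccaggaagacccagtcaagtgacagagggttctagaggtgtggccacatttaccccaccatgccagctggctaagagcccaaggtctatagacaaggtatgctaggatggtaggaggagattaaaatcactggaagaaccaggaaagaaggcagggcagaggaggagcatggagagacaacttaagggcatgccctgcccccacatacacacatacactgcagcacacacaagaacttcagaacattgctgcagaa
Cbr2: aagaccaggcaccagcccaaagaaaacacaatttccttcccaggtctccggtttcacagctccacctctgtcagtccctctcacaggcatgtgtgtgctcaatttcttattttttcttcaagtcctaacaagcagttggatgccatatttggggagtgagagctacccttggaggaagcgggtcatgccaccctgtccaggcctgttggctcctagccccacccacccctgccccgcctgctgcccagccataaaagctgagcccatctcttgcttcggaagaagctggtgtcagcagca
TATAAA, searched on both strands, began 30 bases before the start site in Krtdap, 31 in Rptn and 43 in Chia1, and was not in the Krt14, Cyp2f2 and Cbr2 windows, so that 3 of the 6 held it. Of all 32851 promoter windows of this length, 13.6% held the motif, and of the 41 squamous list members, 23 had a window in the table, 11 of which held it. These matches are a description of letters in the window.

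The falls ran through both the basal and the cornified layers. Among basal keratins, Krt14 was 4.63, 4.55 and 4.4 in K19-Nog/C2mE against 11.19, 10.36 and 12.32 in K19-C2mE and 4.76, 6.06 and 5.31 in wild-type, with a change of -6.76 (SE 0.84, adjusted p = 0.00015). Its partner Krt5 was 5.58, 5.85 and 5.76 in K19-Nog/C2mE against 11.01, 10.39 and 11.64 in K19-C2mE (-5.28, SE 0.50, adjusted p = 6.89e-06), and Krt15, a basal keratin, was 5.03, 5.03 and 5.03 against 9.43, 9.78 and 10.47 (-4.86, SE 0.41, adjusted p = 2.13e-06). The 3 K19-Nog/C2mE arrays were nearly identical for Krt15, and K19-C2mE replicate 3 was the highest array for all 3 keratins. Trp63, the transcription factor of stratified epithelia, was 1.98-fold lower at its brightest probe set, and its 4 probe sets, all called lower, ranged over -4.35 to -0.99, while the brightest gave -0.78 (adjusted p = 0.0827) without the Y-positive pair. Col17a1, the hemidesmosomal collagen that anchors basal keratinocytes, gave 3.76, 3.67 and 3.30 in K19-Nog/C2mE against 7.53, 7.02 and 8.39 in K19-C2mE (-4.07, SE 0.46, adjusted p = 5.09e-05).

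Suprabasal and cornification genes were lower as well, with K19-C2mE arrays far apart for Krt1, Krt10 and Lor. Krt1, a keratin of keratinised suprabasal layers, was 5.41, 5.49 and 4.92 in K19-Nog/C2mE against 12.73, 8.26 and 13.16 in K19-C2mE, and its change of -6.11 (SE 1.30, adjusted p = 0.00912) had an adjusted p of 0.0636 without K19-C2mE replicate 3. Its partner Krt10 changed by -4.80 (SE 0.83, adjusted p = 0.00222), the cornified envelope gene Lor by -4.87 (SE 0.89, adjusted p = 0.00339) and Sprr3 by -5.84 (SE 1.0, adjusted p = 0.00203). Fitted on the 6 compared arrays only, the adjusted p was 0.0573 for Krt1, 0.0529 for Krt10, 0.0325 for Lor and 0.00591 for Sprr3. K19-C2mE replicate 2 was the lowest of its group for Krt1, Krt10, Lor, Krtdap and Rptn, and still above every K19-Nog/C2mE array. Krt13, a keratin of non-keratinised squamous mucosa, was 6.14, 8.08 and 5.55 in K19-Nog/C2mE against 12.47, 11.54 and 13.34 in K19-C2mE (-5.86, SE 1.23, adjusted p = 0.00827), with K19-Nog/C2mE replicate 2 the highest of its group. The late cornified envelope (Lce) genes, a family chosen after its values were seen, had 13 of 15 measured members lower and none higher, beside 2.55% lower of all genes, with a median change of -3.31. Not every member moved: involucrin (Ivl) gave 7.23, 7.73 and 8.47 in K19-Nog/C2mE against 6.10, 7.81 and 8.40 in K19-C2mE, and Ly6d, Serpinb5, Dsc2 and Sprr1a also did not pass the test.

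The median log2 signal of the squamous list was 5.80, 5.94 and 5.76 on the K19-Nog/C2mE arrays against 10.25, 8.84 and 10.86 on the K19-C2mE arrays, a difference in means of -4.15. It was 5.81 and 5.49 in K19-Nog, 5.85, 7.22 and 5.98 in wild-type, and 6.14 to 9.76 over the 5 K19-Wnt1/C2mE arrays. The K19-Nog/C2mE arrays thus lay within the range of the K19-Nog and wild-type arrays, among which wild-type replicate 2 was the highest. An exact permutation test of the 3 against 3 arrays gave p = 0.1 (two-sided), the smallest value this design allows. Summed over the list, the linear signal was 17030 to 21340 in K19-Nog/C2mE, 39970 to 136100 in K19-C2mE and 6729 to 15700 in wild-type stomachs. In whole tissue, fewer cells of a type and less RNA per cell cannot be told apart, and how much forestomach each dissection held was not tested. Without the 2 K19-C2mE arrays that carried Y-linked signal, 19 of the 41 members were called lower and the median was -3.12, Krt14 giving -6.66 (adjusted p = 0.00962), Krtdap -8.25 (adjusted p = 0.0347) and Krt1 -7.46 (adjusted p = 0.0329). On the same arrays the calls of Rptn at -7.49 (adjusted p = 0.053), Krt13 at -5.88 (adjusted p = 0.158) and Sprr3 at -5.95 (adjusted p = 0.0566) ended. With the squamous level of each array as a covariate, no member was called. That level is the median of these same members and does not overlap between the genotypes, so this outcome says nothing about them.

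**Figure D2:**
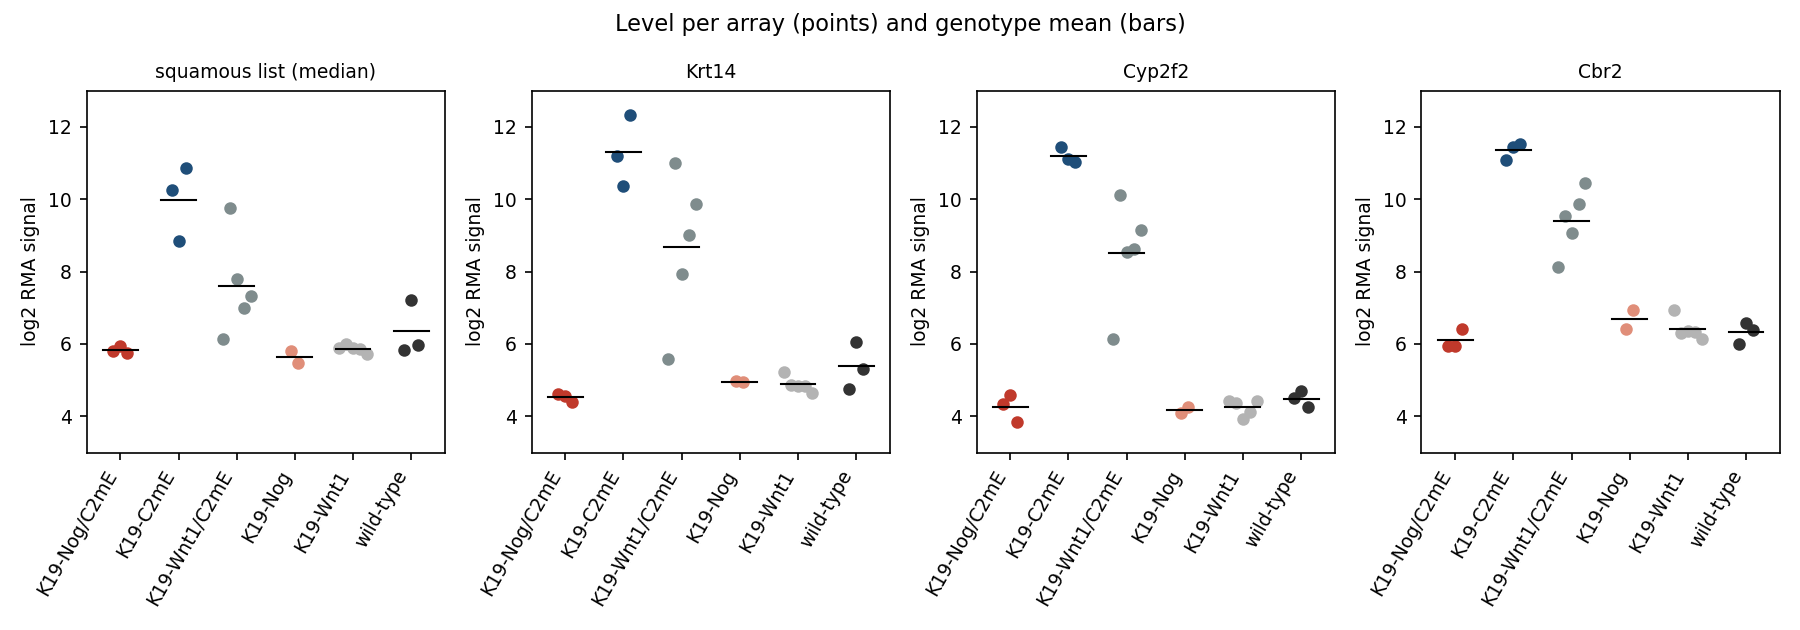
The y axes give log2 RMA signal, each point is 1 array, bars are genotype means, and the panels show the median of the squamous list, Krt14, Cyp2f2 and Cbr2. In each panel every K19-Nog/C2mE array lies below every K19-C2mE array and close to the wild-type arrays, as for Krt14 with 4.63, 4.55 and 4.4 in K19-Nog/C2mE.

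Several genes outside the squamous list fell with less variation among the K19-C2mE arrays. Cyp2f2, a cytochrome P450 known from airway club cells and liver, was 4.33, 4.60 and 3.84 in K19-Nog/C2mE against 11.43, 11.11 and 11.02 in K19-C2mE. Its change of -6.93 (SE 0.58, adjusted p = 1.59e-06), or 122-fold lower, brought K19-Nog/C2mE close to wild-type, at 4.50, 4.70 and 4.26. Cbr2, a carbonyl reductase of mouse lung, was 5.95, 5.94 and 6.41 in K19-Nog/C2mE against 11.08, 11.44 and 11.53 in K19-C2mE, and had the smallest adjusted p of any gene (-5.25, SE 0.38, adjusted p = 4.32e-07). The K19-C2mE arrays lay closer together for both genes than for the keratins, and wild-type arrays gave 5.99, 6.57 and 6.39 for Cbr2. Cbr2 was 1 of 2 original gene calls that passed with the squamous level as a covariate (-4.56, adjusted p = 0.0202), the other being Runx1, while Cyp2f2 gave -4.20 (adjusted p = 0.0674). On the K19-Wnt1/C2mE arrays Cyp2f2 was 6.13, 10.12, 8.55, 8.61 and 9.14 and Cbr2 was 8.12, 9.52, 9.06, 9.85 and 10.45. The basal keratin Krt15 was 6.19, 7.86, 7.52, 8.05 and 8.63 there, so all 3 genes were lowest on replicate 1. Whether Cyp2f2 and Cbr2 change apart from the squamous genes was not tested.

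Genes chosen here after their values were seen included Padi1, a peptidylarginine deiminase that citrullinates keratins and filaggrin, at 4.46, 4.46 and 4.34 in K19-Nog/C2mE against 6.04, 5.76 and 6.25 in K19-C2mE (-1.60, SE 0.13, adjusted p = 9.66e-07). Gabrp, a GABA receptor subunit of epithelia, changed by -2.78 (SE 0.32, adjusted p = 7.43e-05), Ecm1, an extracellular matrix protein of skin, by -2.30 (SE 0.28, adjusted p = 0.000146), and the neuropeptide gene Calcb by -3.85 (SE 0.47, adjusted p = 0.000132). Among genes named by the size of their change, Calml3, a calmodulin-like protein of epithelia, changed by -5.45 (SE 0.72, adjusted p = 0.000255), and by -1.42 (adjusted p = 0.662) with the squamous covariate. The cysteine protease inhibitor Csta1 changed by -5.87 (SE 0.88, adjusted p = 0.000693), and by -0.26 (adjusted p = 0.959) with that covariate. All these genes kept their call with the 2 Y-positive K19-C2mE arrays left out, where Cyp2f2 gave -7.17 (adjusted p = 0.000356), Cbr2 -4.98 (adjusted p = 0.000201) and Krt5 -5.28 (adjusted p = 0.000998).

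Among genes of the chief cells, which secrete digestive zymogens, Chia1, Pgc, Pla2g1b and Tent5c were lower in K19-Nog/C2mE. Of 11 measured chief cell genes, these 4 were called lower, none was higher and 7 did not pass the test, beside 2.55% lower of all genes, with a median of -0.77 against -0.0028 over all genes, and 2 were called without K19-Nog/C2mE replicate 3, K19-C2mE replicate 1 or K19-C2mE replicate 3. The median was -2.11 without K19-Nog/C2mE replicate 1 and -1.61 without the Y-positive K19-C2mE pair. Chia1, the acidic chitinase secreted by chief cells of mice, was 8.46, 7.12 and 4.97 in K19-Nog/C2mE against 13.75, 10.90 and 13.79 in K19-C2mE, and 14.78, 14.78 and 14.81 in wild-type stomachs. Its change was -5.96 (SE 1.24, adjusted p = 0.0079), and the highest K19-Nog/C2mE array was below the lowest K19-C2mE array, replicate 2. Pgc, the zymogen progastricsin, was 9.08, 9.99 and 6.56 in K19-Nog/C2mE against 13.75, 11.14 and 13.69 in K19-C2mE, and 14.92, 14.85 and 14.85 in wild-type (-4.32, SE 0.86, adjusted p = 0.00576). In both genes K19-Nog/C2mE replicate 3 was the lowest array of the 6. On the K19-Wnt1/C2mE arrays, without noggin, Chia1 was 8.72, 8.55, 14.01, 9.73 and 6.31 and Pgc was 10.16, 10.03, 13.66, 10.14 and 10.08. Low levels of both were thus not particular to noggin.

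Pla2g1b, a secreted phospholipase A2, gave 10.90, 11.72 and 7.10 in K19-Nog/C2mE against 14.61, 12.47 and 14.62 in K19-C2mE (-3.99, SE 1.01, adjusted p = 0.0262). Tent5c, a poly(A) polymerase of secretory cells, gave 7.46, 7.26 and 7.30 against 8.13, 7.96 and 8.23 (-0.77, SE 0.19, adjusted p = 0.02). The adjusted p of Pla2g1b was between 0.0922 and 0.127 without K19-Nog/C2mE replicate 3 or K19-C2mE replicate 1 or 3, and that of Tent5c was between 0.0569 and 0.0967 without K19-Nog/C2mE replicate 2 or 3 or K19-C2mE replicate 1 or 3. Gastric intrinsic factor (Cblif), a chief cell product in mice, had 7.22, 8.95 and 4.71 in K19-Nog/C2mE against 12.29, 9.05 and 12.27 in K19-C2mE and did not pass the test (-4.24, SE 1.22, adjusted p = 0.0523). Without the Y-positive K19-C2mE arrays only Pgc of the 4 was called (-5.21, adjusted p = 0.0346), and Pla2g1b at -4.71 (adjusted p = 0.155) and Tent5c at -0.80 (adjusted p = 0.229) were not, nor was Chia1 at -6.90 (adjusted p = 0.069).

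Of 22 parietal cell genes, only Aqp4, a water channel of the basolateral membrane, was called, and it was lower, at 5.5, 5.06 and 4.53 in K19-Nog/C2mE against 7.06, 7.22 and 8.08 in K19-C2mE and 9.62, 9.36 and 9.60 in wild-type (-2.43, SE 0.38, adjusted p = 0.000923). With the Y-positive K19-C2mE pair left out, it gave -2.03 (adjusted p = 0.0736). The proton pump subunit Atp4a, which acidifies the lumen, was 10.74, 11.72 and 6.26 in K19-Nog/C2mE against 13.41, 10.59 and 13.18 in K19-C2mE, and its groups overlapped (-2.82, SE 1.10, adjusted p = 0.172). K19-Nog/C2mE replicate 3 stood apart as the lowest array for Atp4a, Atp4b (10.83, 11.99 and 7.08 in K19-Nog/C2mE against 13.45, 10.50 and 12.92 in K19-C2mE) and the surface mucin Muc5ac (12.47, 12.47 and 9.17 against 13.56, 11.83 and 13.34). None of 15 foveolar, 21 endocrine or 37 proliferation genes was called, and their medians were -0.08, -0.29 and -0.095.

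Other genes lower than in both K19-C2mE and wild-type included Olfm4, a marker of intestinal stem cells and of metaplastic stomach, at 3.84, 3.74 and 4.02 in K19-Nog/C2mE, 5.63, 5.60 and 7.85 in K19-C2mE and 7.47, 6.78 and 7.35 in wild-type. The fall of Olfm4 against K19-C2mE was -2.50 (SE 0.60, adjusted p = 0.0184), with an adjusted p between 0.0518 and 0.125 without K19-Nog/C2mE replicate 1 or 2 or K19-C2mE replicate 3. The K19-Nog/C2mE arrays also lay below every K19-C2mE and wild-type array for 3 genes chosen after their values were seen: Cpe, a carboxypeptidase that processes prohormones (-1.87, SE 0.32, adjusted p = 0.00186), Kif21a, a kinesin (-1.90, SE 0.22, adjusted p = 9.47e-05), and Sgk1, a serum- and glucocorticoid-induced kinase (-1.39, SE 0.22, adjusted p = 0.000931). Sgk1 was 10.62, 10.63 and 10.25 in K19-Nog/C2mE against 11.95, 11.75 and 11.99 in K19-C2mE and 12.41, 12.26 and 12.29 in wild-type. Once K19-C2mE replicates 2 and 3 were left out, Sgk1 gave -1.45 (adjusted p = 0.0365), Kif21a -2.02 (adjusted p = 0.00323) and Cpe -1.79 (adjusted p = 0.057).

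**Figure D3:**
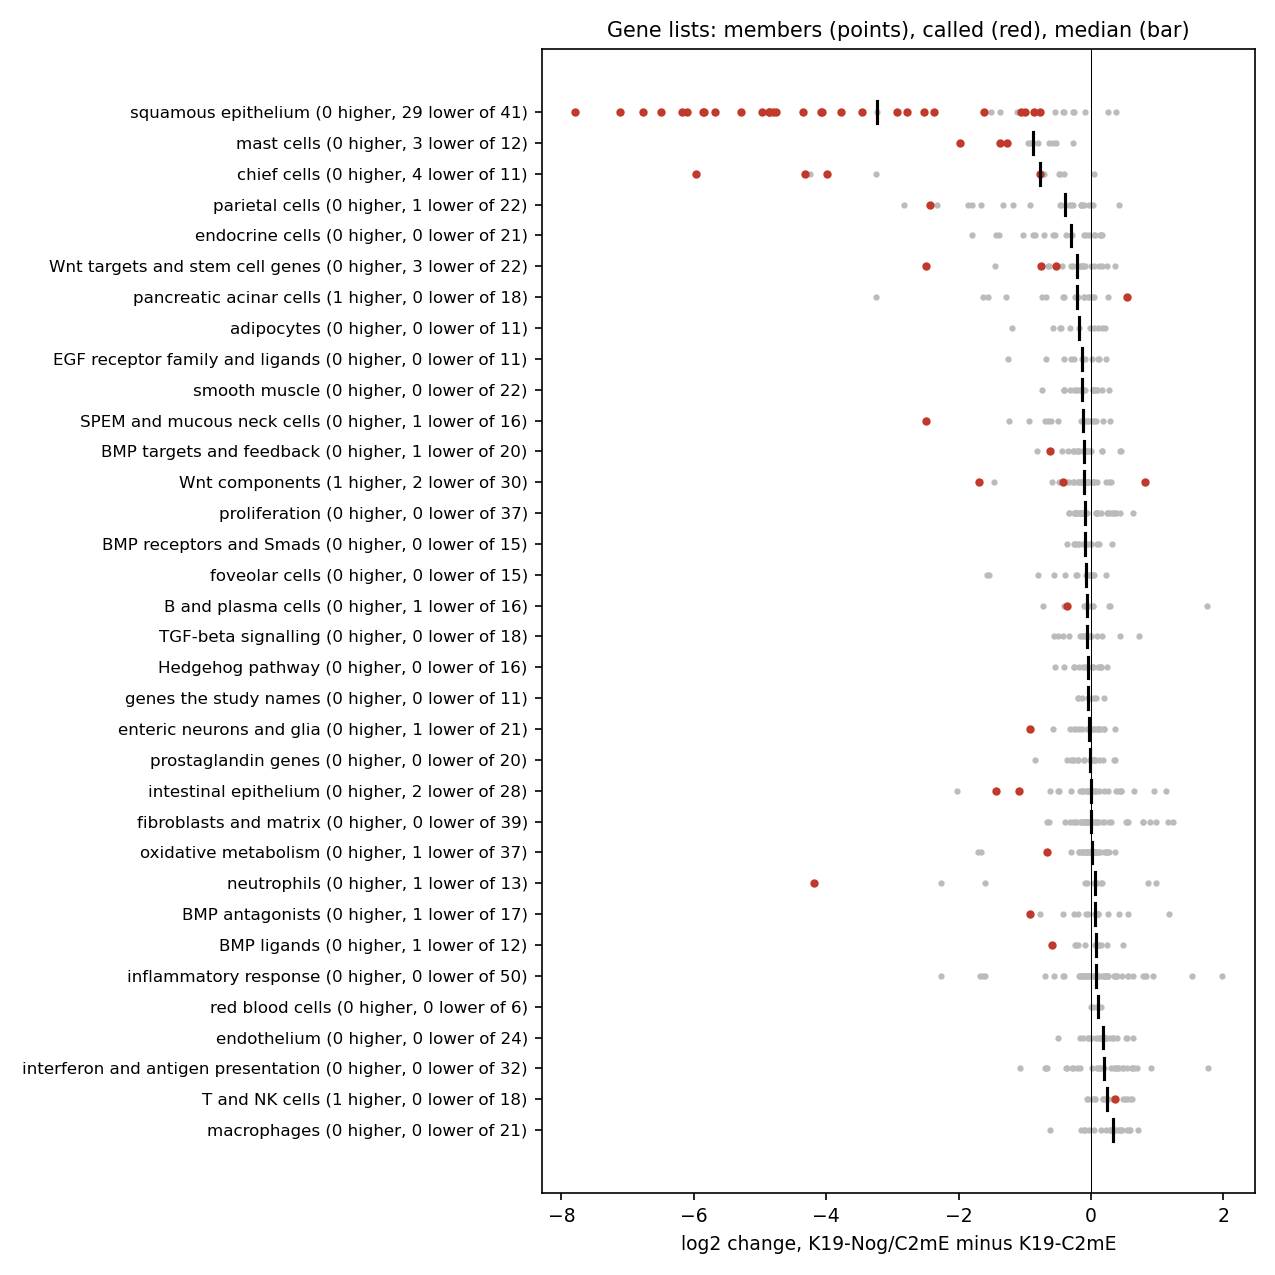
Each row is a gene list, the x axis is the log2 change (K19-Nog/C2mE minus K19-C2mE), points are measured members, red points were called and black bars are medians. The squamous list is set off at a median of -3.23, and most other medians lie near 0. The macrophage median of 0.34 was 0.048 without K19-Nog/C2mE replicate 3.

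Among genes of the BMP pathway, on which noggin acts, Id1 was the only target called. Of 20 measured BMP targets and feedback genes, 1 was lower and none was higher, beside 2.55% lower and 0.753% higher of all genes, with a median of -0.11 against -0.0028 over all genes. Id1, a helix-loop-helix inhibitor of differentiation and a direct BMP target, was 11.02, 11.26 and 11.39 in K19-Nog/C2mE against 12.16, 11.69 and 11.65 in K19-C2mE. The arrays did not overlap, and the change was -0.61 (SE 0.16, adjusted p = 0.0312), or 1.53-fold lower, with an adjusted p between 0.0617 and 0.155 without K19-Nog/C2mE replicate 1 or 2 or K19-C2mE replicate 1. Without the Y-positive K19-C2mE arrays Id1 gave -0.94 (adjusted p = 0.0406). In mice without C2mE, Id1 was 10.73 and 11.02 in K19-Nog against 11.81, 11.71 and 11.58 in wild-type (-0.83, SE 0.18, adjusted p = 0.00893). Lower Id1 thus went with noggin in both settings, on separate arrays, and no noggin array of either setting carried Y-linked signal. K19-C2mE replicate 1 and wild-type replicate 2 were the only reference arrays without Y-linked signal, so noggin and Y-linked signal cannot be told apart for Id1.

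The other Id genes did not pass the test at their brightest probe sets: Id2 was 9.47, 10.14 and 10.21 in K19-Nog/C2mE against 10.53, 10.14 and 10.18 in K19-C2mE (-0.35, SE 0.18, adjusted p = 0.329). Id3 changed by -0.25 (SE 0.18, adjusted p = 0.536) and Id4 by -0.81 (SE 0.32, adjusted p = 0.175), and their groups overlapped. The 3 probe sets of Id4 ranged over -0.87 to -0.76, and 1 of them was called lower (-0.87, adjusted p = 0.0404). The inhibitory Smads Smad6 (-0.18, SE 0.18, adjusted p = 0.692) and Smad7 (0.17, SE 0.15, adjusted p = 0.623) and the pseudoreceptor Bambi (-0.09, SE 0.17, adjusted p = 0.868) were not called either.

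Only Gdf9 of 12 BMP ligands and only Sostdc1 of 17 antagonists were called, beside 2.55% lower and 0.753% higher of all genes. Gdf9, a growth differentiation factor known from oocytes, was 5.81, 6.34 and 5.91 in K19-Nog/C2mE against 6.58, 6.42 and 6.82 in K19-C2mE (-0.59, SE 0.16, adjusted p = 0.0441), and its adjusted p was between 0.0902 and 0.21 without K19-Nog/C2mE replicate 1 or 3 or K19-C2mE replicate 1 or 3. Bmp2 and Bmp4, ligands that noggin binds, changed by -0.20 (SE 0.17, adjusted p = 0.62) and -0.08 (SE 0.23, adjusted p = 0.906). None of 15 BMP receptors and Smads passed the test, Bmpr2, the type II receptor, giving 9.70, 9.57 and 9.88 in K19-Nog/C2mE against 10.13, 9.94 and 10.17 in K19-C2mE without overlap (-0.37, SE 0.12, adjusted p = 0.0894). Of 17 antagonists, Sostdc1, a secreted BMP and Wnt inhibitor, was lower, at 4.07, 4.29 and 3.99 in K19-Nog/C2mE against 5.31, 4.59 and 5.23 in K19-C2mE (-0.93, SE 0.23, adjusted p = 0.0214), and its adjusted p was between 0.0719 and 0.108 without K19-Nog/C2mE replicate 1 or 3 or K19-C2mE replicate 1 or 3. Sostdc1 was 8.94, 8.85 and 8.88 in wild-type stomachs, above both tumor genotypes. With the Y-positive K19-C2mE pair left out, Sostdc1 at -1.19 (adjusted p = 0.0705) and Gdf9 at -0.56 (adjusted p = 0.36) were not called. Follistatin (Fst), which binds activins, was 5.27, 6.19 and 9.42 in K19-Nog/C2mE against 5.61, 5.78 and 5.93 in K19-C2mE, high only in K19-Nog/C2mE replicate 3 (1.19, SE 0.75, adjusted p = 0.466). Grem1, a BMP antagonist of stromal cells, changed by -0.78 (SE 0.27, adjusted p = 0.124).

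The transgenes were read next. Nog was 4.22, 4.23 and 5.68 in K19-Nog/C2mE against 4.32, 3.93 and 4.23 in K19-C2mE, with only K19-Nog/C2mE replicate 3 above the K19-C2mE arrays (0.56, SE 0.26, adjusted p = 0.291), and 4.52 and 4.56 in K19-Nog against 4.50, 4.42 and 4.47 in wild-type. Whether this probe set covers the transgene transcript was not tested, so it does not check the genotype. Ptgs2, which both genotypes carry as a transgene, was 9.80, 9.59 and 9.71 in K19-Nog/C2mE against 9.82, 9.05 and 9.14 in K19-C2mE (0.36, SE 0.25, adjusted p = 0.514) and 7.24, 7.25 and 6.69 in wild-type, and Ptges was 6.20, 6.43 and 6.81 against 6.39, 6.77 and 6.88 (-0.20, SE 0.19, adjusted p = 0.684).

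**Figure D4:**
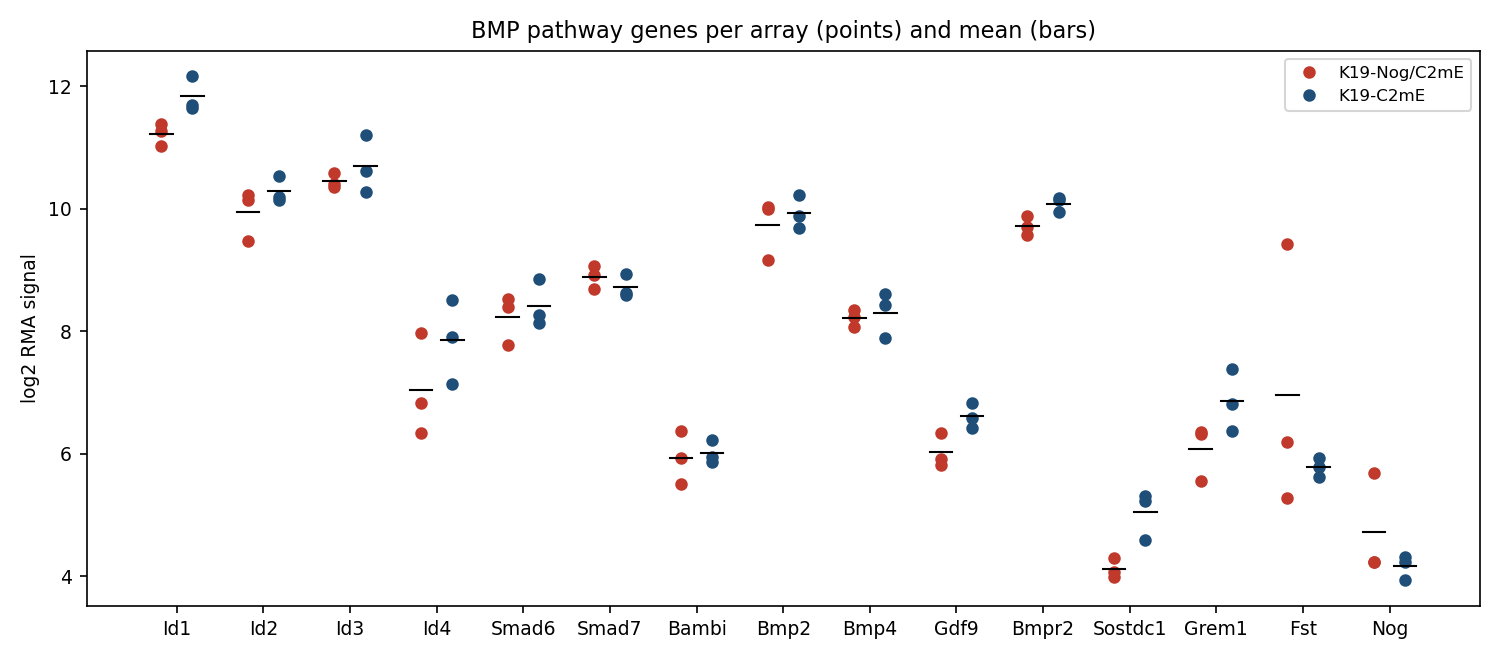
The y axis is log2 RMA signal and each point is 1 array of K19-Nog/C2mE (red) or K19-C2mE (blue) for 15 BMP pathway genes, with bars at the means. Id1 lies lower in all 3 K19-Nog/C2mE arrays, and Fst and Nog are high only in K19-Nog/C2mE replicate 3.

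Of 22 Wnt target and stem cell genes, 3 were lower and none was higher, beside 2.55% lower and 0.753% higher of all genes: Olfm4, the ephrin receptor Ephb3 (8.66, 9.04 and 9.14 in K19-Nog/C2mE against 9.68, 9.88 and 9.56 in K19-C2mE, -0.76, SE 0.15, adjusted p = 0.00564) and the feedback inhibitor Nkd2 (-0.53, SE 0.14, adjusted p = 0.0276). Of 30 Wnt components, the secreted inhibitor Wif1 (3.63, 3.37 and 2.93 in K19-Nog/C2mE against 3.91, 5.07 and 6.01 in K19-C2mE, -1.69, SE 0.33, adjusted p = 0.00519) and the Wnt export protein Wls (-0.42, SE 0.10, adjusted p = 0.0218) were called lower, again beside 2.55% of all genes. The 1 higher call of that list, Tcf4 (0.82, SE 0.22, adjusted p = 0.0357), is the E-protein transcription factor gene of that symbol and not the Wnt effector Tcf7l2, so it is no Wnt component, and its other 5 probe sets were not called. Once K19-C2mE replicates 2 and 3 were left out, Ephb3 gave -0.73 (adjusted p = 0.137), Wif1 -0.60 (adjusted p = 0.4), Olfm4 -1.76 (adjusted p = 0.36), Nkd2 -0.58 (adjusted p = 0.247), Wls -0.49 (adjusted p = 0.165) and Tcf4 0.75 (adjusted p = 0.394). The adjusted p of Nkd2 was between 0.0588 and 0.109 without K19-Nog/C2mE replicate 1 or 3 or K19-C2mE replicate 1 or 3, that of Wls between 0.062 and 0.108 without K19-Nog/C2mE replicate 1 or K19-C2mE replicate 1 or 2 and that of Tcf4 between 0.0576 and 0.137 without K19-Nog/C2mE replicate 1 or 2 or 3 or K19-C2mE replicate 1 or 2 or 3. None of 18 TGF-beta, 16 Hedgehog, 11 EGF receptor family or 20 prostaglandin genes was called. Of 11 measured genes that the study names, none was called at its brightest probe set: Smad3 changed by -0.04 (SE 0.09, adjusted p = 0.897), Tgfbr2 by -0.01 (SE 0.12, adjusted p = 0.991), Ctnnb1 by -0.04 (SE 0.08, adjusted p = 0.87) and Porcn by -0.19 (SE 0.15, adjusted p = 0.581). Of the 3 Smad3 probe sets, 1 was called lower (-0.64, adjusted p = 0.0159). For K19-Nog/C2mE the study names ROCKII as higher and RAMP2 and PPARGC1A as lower, from an ANOVA over 3 tumor genotypes with ratios to wild-type. That differs from the pairwise comparison made here, and Rock2 was not among the genes measured. Ramp2, a receptor activity-modifying protein, was 7.51, 7.56 and 8.32 in K19-Nog/C2mE against 7.36, 7.61 and 7.82 in K19-C2mE (0.20, SE 0.20, adjusted p = 0.695). Ppargc1a, a coactivator of mitochondrial biogenesis, was 5.86, 6.64 and 6.32 against 6.16, 6.06 and 6.39 at its brightest probe set (0.08, SE 0.25, adjusted p = 0.926), while 2 of its 5 probe sets were called lower, the lowest at -1.20.

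Of 12 mast cell genes, 3 were called lower, none was higher and 9 did not pass the test, beside 2.55% lower of all genes, and the median was -0.87 with every member below 0. Only 1 was called without K19-Nog/C2mE replicate 3. The chymase Mcpt4 was 6.50, 6.20 and 6.75 in K19-Nog/C2mE against 7.81, 9.74 and 7.81 in K19-C2mE, without overlap (-1.97, SE 0.36, adjusted p = 0.00345). The tryptases Tpsb2 (6.85, 7.43 and 5.93 in K19-Nog/C2mE against 8.16, 8.16 and 8.01 in K19-C2mE, -1.37, SE 0.32, adjusted p = 0.0152) and Tpsab1 (-1.27, SE 0.32, adjusted p = 0.0232) were lower as well, with an adjusted p of 0.0765 without K19-Nog/C2mE replicate 3 for Tpsb2 and between 0.0809 and 0.134 without K19-Nog/C2mE replicate 1 or 3 or K19-C2mE replicate 1 or 3 for Tpsab1. The tryptase genes are near-identical paralogs whose probes may read both. The mucosal protease Mcpt2 was 10.40, 10.31 and 11.16 in K19-Nog/C2mE against 11.12, 12.07 and 11.30 in K19-C2mE and did not pass (-0.88, SE 0.33, adjusted p = 0.159), nor did Cpa3, a mast cell carboxypeptidase (-0.92, SE 0.46, adjusted p = 0.32). Without the Y-positive K19-C2mE arrays no mast cell gene was called, the median was -0.59, and Mcpt4 gave -1.33 (adjusted p = 0.056), Tpsb2 -1.43 (adjusted p = 0.204) and Tpsab1 -1.5 (adjusted p = 0.101).

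Leukocyte genes mostly did not pass the test, and their calls are to be read beside 2.55% lower and 0.753% higher of all genes. K19-Nog/C2mE replicate 3 carried the highest levels of several. None of 21 macrophage genes (median 0.34), 50 inflammatory response genes (0.08) or 32 interferon and antigen presentation genes (0.20) was called. Without K19-Nog/C2mE replicate 3 the macrophage median was 0.048, the interferon median -0.29 and the inflammatory median -0.07, with 4 inflammatory genes called lower. Of 13 neutrophil genes, lactoferrin (Ltf) was called lower, at 8.28, 7.33 and 13.59 in K19-Nog/C2mE against 13.75, 13.99 and 14.03 in K19-C2mE (-4.19, SE 1.01, adjusted p = 0.0195), with an adjusted p between 0.0508 and 0.107 without K19-Nog/C2mE replicate 1 or 2 or K19-C2mE replicate 2 or 3. Ltf is also made by glandular epithelium, and K19-Nog/C2mE replicate 3 was within reach of the K19-C2mE arrays while replicates 1 and 2 were not, and without the Y-positive K19-C2mE arrays Ltf gave -4.01 (adjusted p = 0.291). S100a9, a calprotectin subunit of neutrophils, was 4.95, 4.67 and 9.18 in K19-Nog/C2mE against 8.04, 7.24 and 10.33 in K19-C2mE, again high only in K19-Nog/C2mE replicate 3 of its group (-2.27, SE 1.04, adjusted p = 0.269). The same array was the highest of its group for 2 falls chosen after their values were seen: arginase 1 (Arg1) was 5.0, 4.57 and 7.77 in K19-Nog/C2mE against 10.02, 9.89 and 10.71 in K19-C2mE (-4.43, SE 0.63, adjusted p = 0.000509), and the chemokine Ppbp was 4.26, 4.02 and 6.46 against 10.23, 8.48 and 10.93 (-4.97, SE 0.93, adjusted p = 0.00374). Arg1 gave -2.21 (adjusted p = 0.576) and Ppbp -1.31 (adjusted p = 0.9) with the squamous covariate, and which cells expressed them was not tested. With the Y-positive K19-C2mE pair left out, Arg1 at -4.24 (adjusted p = 0.0341) and Ppbp at -5.31 (adjusted p = 0.0594) kept their direction. Of 18 T and NK cell genes Cd4 was higher (0.36, SE 0.09, adjusted p = 0.0238), at 1 of its 2 probe sets, with an adjusted p between 0.0705 and 0.111 without K19-Nog/C2mE replicate 3 or K19-C2mE replicate 1 or 3 and 0.241 without the Y-positive pair.

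Scattered calls remained in other lists, to be read beside 2.55% lower and 0.753% higher of all genes. The intestinal glucose transporter gene Slc5a1 was 5.20, 5.82 and 5.63 in K19-Nog/C2mE against 6.98, 6.34 and 7.61 in K19-C2mE, without overlap (-1.43, SE 0.23, adjusted p = 0.00128), and the apolipoprotein gene Apoa4 changed by -1.08 (SE 0.30, adjusted p = 0.0455), the only 2 of 28 intestinal genes called. Sdc1, a syndecan of plasma cells and epithelia, changed by -0.36 (SE 0.09, adjusted p = 0.0285) and was the only call among 16 B and plasma cell genes, and Ndufa4, a respiratory chain subunit, changed by -0.67 (SE 0.18, adjusted p = 0.0341), the only call among 37 oxidative metabolism genes. The trypsin inhibitor gene Spink1 was higher, at 4.50, 4.71 and 4.54 in K19-Nog/C2mE against 4.18, 4.10 and 3.81 in K19-C2mE (0.55, SE 0.12, adjusted p = 0.00856), the only call among 18 pancreatic acinar genes. The adjusted p was between 0.0761 and 0.205 without K19-Nog/C2mE replicate 1 or 3 or K19-C2mE replicate 1 or 3 for Apoa4, between 0.0662 and 0.141 without K19-Nog/C2mE replicate 1 or 2 or 3 or K19-C2mE replicate 2 or 3 for Sdc1, between 0.0987 and 0.198 without K19-Nog/C2mE replicate 1 or 3 or K19-C2mE replicate 1 or 3 for Ndufa4 and 0.0659 without K19-C2mE replicate 3 for Spink1. In the fit without the Y-positive K19-C2mE pair the adjusted p was 0.00619 for Slc5a1, 0.169 for Apoa4, 0.679 for Sdc1, 0.147 for Ndufa4 and 0.316 for Spink1. No member of the smooth muscle, fibroblast and matrix, endothelium, adipocyte or red blood cell lists was called.

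Few genes were higher, and their changes were smaller. Onecut2, a homeodomain transcription factor of foregut endoderm, was 10.17, 9.47 and 10.64 in K19-Nog/C2mE against 7.95, 9.12 and 7.80 in K19-C2mE and 5.54, 4.94 and 5.30 in wild-type, so that both tumor genotypes stood above wild-type. On the K19-Wnt1/C2mE arrays, which lack the noggin transgene, Onecut2 was 10.63, 10.71, 9.44, 11.41 and 10.62, so its high level was not particular to noggin. Its change of 1.80 (SE 0.43, adjusted p = 0.0194) was the largest rise called, 2 of its 3 probe sets were called, and its adjusted p was between 0.0667 and 0.11 without K19-Nog/C2mE replicate 1 or 3 or K19-C2mE replicate 1 or 3. Slc16a6, a monocarboxylate transporter, was 7.49, 7.49 and 7.5 in K19-Nog/C2mE against 5.99, 6.09 and 6.55 in K19-C2mE and 5.69, 5.81 and 5.52 in wild-type (1.28, SE 0.22, adjusted p = 0.00232). The K19-Nog/C2mE arrays were nearly identical, and the call was kept without any 1 of the 6 arrays and without the Y-positive pair (1.5, adjusted p = 0.0261). Ncmap, a membrane protein known from myelin, chosen after its values were seen, was 10.10, 9.98 and 10.12 in K19-Nog/C2mE against 9.37, 9.0 and 9.21 in K19-C2mE and had the smallest adjusted p of any rise (0.87, SE 0.12, adjusted p = 0.000384). Once K19-C2mE replicates 2 and 3 were left out, Ncmap gave 0.70 (adjusted p = 0.0525) and Onecut2 2.14 (adjusted p = 0.0988).

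Aspn, which encodes asporin, a small leucine-rich matrix proteoglycan that binds TGF-beta and BMP-2, was 8.36, 8.06 and 8.26 in K19-Nog/C2mE against 6.65, 7.59 and 6.82 in K19-C2mE (1.21, SE 0.26, adjusted p = 0.00938), with an adjusted p of 0.0558 without K19-C2mE replicate 3. Tfrc, the transferrin receptor, was 11.70, 11.59 and 11.85 in K19-Nog/C2mE against 10.58, 10.76 and 10.32 in K19-C2mE (1.16, SE 0.30, adjusted p = 0.0293), with an adjusted p between 0.0525 and 0.133 without K19-Nog/C2mE replicate 1 or 2 or 3 or K19-C2mE replicate 1 or 3. The noncoding transcript Plut (1.14, SE 0.29, adjusted p = 0.0245) and the neuronal adhesion gene Cntn5 (1.28, SE 0.32, adjusted p = 0.0244) were higher, with an adjusted p between 0.0922 and 0.108 without K19-Nog/C2mE replicate 3 or K19-C2mE replicate 1 or 3 for Plut and between 0.058 and 0.151 without K19-Nog/C2mE replicate 1 or K19-C2mE replicate 1 or 3 for Cntn5. Tmem87a, chosen after its values were seen, was 9.52, 9.40 and 7.03 in K19-Nog/C2mE against 7.16, 7.07 and 6.96 in K19-C2mE, high on 2 of its 3 arrays only, so that its groups overlapped (1.59, SE 0.39, adjusted p = 0.0215, and between 0.0524 and 0.129 without K19-Nog/C2mE replicate 1 or 2 or K19-C2mE replicate 2 or 3). Without the Y-positive K19-C2mE arrays Aspn at 1.57 (adjusted p = 0.027), Tfrc at 1.13 (adjusted p = 0.316), Plut at 1.39 (adjusted p = 0.134), Cntn5 at 1.24 (adjusted p = 0.23) and Tmem87a at 1.49 (adjusted p = 0.314) kept their direction.

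The change with noggin was then set beside that in mice without C2mE, K19-Nog against wild-type, which shares no array with the tumor comparison. The settings share an imbalance: 0 of 3 K19-Nog/C2mE and 0 of 2 K19-Nog arrays carried Y-linked signal, against 2 of 3 K19-C2mE and 2 of 3 wild-type arrays. What the settings have in common therefore cannot be told apart from that imbalance. K19-Nog against wild-type is given with all its arrays only. There 459 genes were higher (2.52%) and 239 lower (1.31%) in K19-Nog. Over all 18193 genes the changes in the 2 settings had a Pearson correlation of 0.26 and a Spearman correlation of 0.34 across genes, which are not independent replicates, and K19-Nog was read from 2 arrays. Of the genes called higher in K19-Nog/C2mE, 28 were also called higher in K19-Nog, 20.4% of the 137 and 6.1% of the 459, and of those called lower 56 were also called lower, 12.1% of the 464 and 23.4% of the 239. Only 7 genes were called in opposite directions.

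Among the shared falls, Malat1, an abundant nuclear noncoding RNA, was 8.57, 8.76 and 9.10 in K19-Nog/C2mE against 11.48, 11.14 and 10.81 in K19-C2mE, and 8.14 and 8.60 in K19-Nog against 10.89, 10.90 and 10.97 in wild-type. The change was -2.34 (SE 0.25, adjusted p = 3.34e-05) with C2mE and -2.55 (SE 0.28, adjusted p = 1.9e-05) without it, with no overlap in either setting, and -2.67 (adjusted p = 0.000932) in tumors without the Y-positive K19-C2mE arrays. Malat1 and the next gene, Runx1, were chosen after their values were seen, and 5 of the 7 Malat1 probe sets were called lower, over -2.34 to -0.06. Runx1, a runt transcription factor active in hematopoietic cells and gastric stem cells, was 7.77, 7.62 and 7.74 in K19-Nog/C2mE against 9.05, 9.05 and 8.55 in K19-C2mE (-1.17, SE 0.14, adjusted p = 0.000139) and 6.81 and 7.0 in K19-Nog against 7.82, 7.69 and 7.73 in wild-type (-0.84, SE 0.16, adjusted p = 0.00366). Its 6 probe sets ranged over -1.17 to -0.10 in the tumors, 3 of them called lower, and the call at the brightest held with the Y-positive arrays left out (-1.34, adjusted p = 0.00129) and with the squamous level as a covariate (-1.56, adjusted p = 0.0234). Id1 was also among the 56.

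Among the shared rises, Aspn changed by 1.21 with C2mE and 1.71 without it (SE 0.29, adjusted p = 0.00126), with 7.80 and 8.21 in K19-Nog against 5.84, 6.82 and 6.22 in wild-type. The Ras GTPase activator Rasa2 changed by 0.92 (adjusted p = 0.00124) with C2mE and 0.61 (adjusted p = 0.0379) without it, the lipid desaturase Scd2 by 0.92 (adjusted p = 0.0429) and 1.04 (adjusted p = 0.0384), and the RNA-binding protein Celf2 by 0.80 (adjusted p = 0.00305) and 0.96 (adjusted p = 0.00135). Foxp1, a forkhead repressor (0.42, adjusted p = 0.0194, and 0.70, adjusted p = 0.000856), and Pik3ca, the catalytic PI3-kinase subunit (0.53, adjusted p = 0.00706, and 0.74, adjusted p = 0.000921), were called higher in both settings with changes under 1 at their brightest probe sets. In the tumors only 1 of 2 probe sets was called for Rasa2, 1 of 3 for Scd2 and 2 of 7 for Celf2. The same held for 1 of 8 for Foxp1 (-0.01 to 0.84) and 1 of 6 for Pik3ca (-0.11 to 0.53). Fbxl7, an F-box protein, was called higher with 2 of its 4 probe sets in the tumors (1.23, adjusted p = 0.0221, and between 0.0727 and 0.128 without K19-Nog/C2mE replicate 1 or K19-C2mE replicate 2 or 3), and the mean of its probe sets gave 0.36 (adjusted p = 0.0908). The adjusted p in the tumors was between 0.081 and 0.142 without K19-Nog/C2mE replicate 1 or 2 or 3 or K19-C2mE replicate 1 or 2 or 3 for Scd2 and between 0.05 and 0.0955 without K19-Nog/C2mE replicate 2 or 3 or K19-C2mE replicate 2 or 3 for Foxp1. With the Y-positive K19-C2mE pair left out, the adjusted p was 0.132 for Rasa2, 0.404 for Scd2, 0.0987 for Celf2, 0.501 for Foxp1, 0.276 for Pik3ca and 0.394 for Fbxl7, with each change above 0.

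The difference between the settings was tested as an interaction, the change in tumors minus the change in mice without C2mE, which called 202 genes (1.11%), 199 of them below 0. By probe set 353 were called, against 211 without K19-C2mE replicate 3, 150 without K19-Nog replicate 1, 202 without wild-type replicate 1, 227 without wild-type replicate 3 and 208 without the Y-positive K19-C2mE arrays. Krt14 (-6.34, SE 1.26, adjusted p = 0.0175), Cyp2f2 (-6.61, SE 0.86, adjusted p = 0.000351) and Cbr2 (-5.61, SE 0.57, adjusted p = 4.17e-05) were among them, and their levels in K19-Nog did not pass a test against wild-type. In wild-type Krt14 (4.76, 6.06 and 5.31) and Cyp2f2 (4.50, 4.70 and 4.26) were already low, so a fall of that size could not be measured without C2mE. For genes low in wild-type the interaction therefore cannot show that noggin acts differently without C2mE. Other genes had an interaction and no call in the tumors: the fat cell hormone Adipoq was 7.52 and 10.76 in K19-Nog against 3.49, 3.64 and 3.57 in wild-type, and 3.54, 3.69 and 3.36 in K19-Nog/C2mE against 3.21, 3.44 and 3.42 in K19-C2mE (-5.40, SE 1.20, adjusted p = 0.039). Smooth muscle genes belonged to this set, with 19 of 22 showing an interaction, and the list median lay at 11.12 and 10.61 on the K19-Nog arrays against 8.27, 8.95 and 8.70 in wild-type, and at 8.08, 7.96 and 7.72 in K19-Nog/C2mE against 8.0, 7.83 and 8.24 in K19-C2mE. Adipoq differed widely between the 2 K19-Nog arrays, while the muscle genes did not. The enteric neuropeptide Vip was 8.62 and 8.40 in K19-Nog against 4.64, 4.18 and 5.01 in wild-type, and 4.43, 4.28 and 3.96 in K19-Nog/C2mE against 3.92, 3.82 and 3.83 in K19-C2mE (-3.53, SE 0.48, adjusted p = 0.000507). The share of muscle wall in the K19-Nog samples cannot be told apart from an effect of noggin on these genes.

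The 7 genes called in opposite directions were Chl1, Grp, Snap25, Hspa2, Frmd6, Bves and Fhod3, all lower in K19-Nog/C2mE and higher in K19-Nog. Of these, gastrin-releasing peptide (Grp) was 5.04, 5.21 and 4.73 in K19-Nog/C2mE against 5.84, 6.57 and 6.47 in K19-C2mE, and 9.25 and 8.81 in K19-Nog against 5.27, 5.19 and 5.90 in wild-type. Its changes were -1.30 (adjusted p = 0.046, and between 0.0653 and 0.163 without K19-Nog/C2mE replicate 1 or 2 or 3 or K19-C2mE replicate 2 or 3) with C2mE and 3.58 (adjusted p = 3.02e-05) without it. Chl1, a neural adhesion molecule, was 3.99, 3.94 and 3.97 in K19-Nog/C2mE against 6.19, 5.24 and 7.25 in K19-C2mE, and 6.35 and 6.02 in K19-Nog against 4.30, 4.71 and 4.61 in wild-type (-3.90, SE 0.44, adjusted p = 0.0001 for the interaction). The synaptic gene Snap25 changed by -0.92 (adjusted p = 0.0431, and between 0.123 and 0.191 without K19-Nog/C2mE replicate 1 or 3 or K19-C2mE replicate 2 or 3) in tumors and 1.74 (adjusted p = 0.00107) without C2mE. Once K19-C2mE replicates 2 and 3 were left out, Grp at -0.84 (adjusted p = 0.614) and Snap25 at -0.41 (adjusted p = 0.738) were not called in the tumors.

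**Figure D5:**
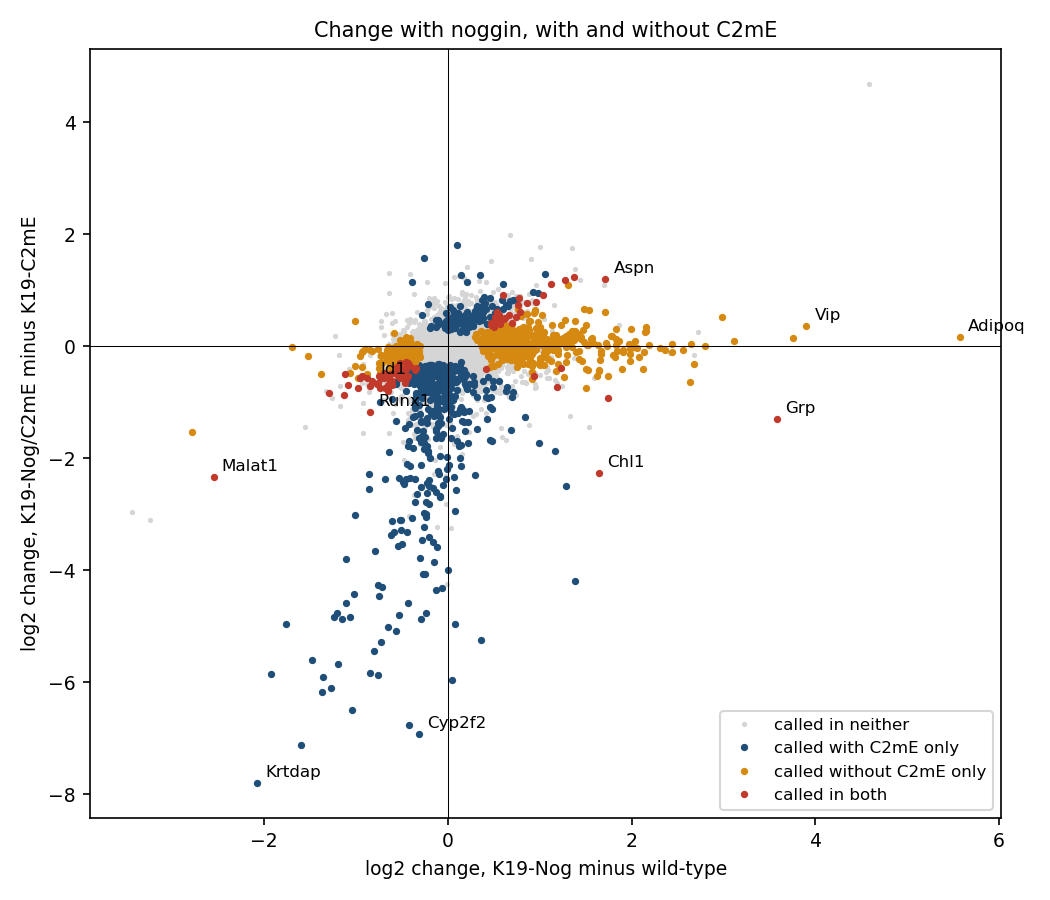
Each point is a gene, with the log2 change of K19-Nog minus wild-type on the x axis and of K19-Nog/C2mE minus K19-C2mE on the y axis, coloured by where it was called. Malat1, Runx1 and Id1 lie lower in both settings, Krtdap and Cyp2f2 lie low on the y axis, and Adipoq and Vip lie far right near 0 on the y axis.

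The balance of higher and lower calls depended on which probe sets were read. Among probe sets that stand for their gene as its brightest, 0.753% were higher and 2.55% lower in K19-Nog/C2mE, among the 16752 other probe sets of a gene 2.49% were higher and 3.44% lower, and among the 9160 with no gene annotated 4.99% were higher and 0.906% lower. Of the 1019 probe sets called higher, 457 had no gene, and the median log2 level was 4.83 for probe sets with no gene and 7.10 for the brightest. Of the same 1019, 969 had a change above 0 in K19-Nog against wild-type, where 42.4% of all probe sets did, and 321 were called there, 31.5% of the 1019 and 24% of the 1338 probe sets higher in K19-Nog. Of the 1135 lower probe sets, 950 were below 0 without C2mE as well and 366 were called, 32.2% of the 1135 and 35.9% of the 1019 lower in K19-Nog. Most of all probe sets were also below 0 in that setting, with a median of -0.038.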

How the data were processed

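Glandular stomachs of mice were hybridised to Affymetrix mouse genome expression arrays, 1 mouse per array, with 21 arrays over 6 genotypes. The authors summarised the probes by RMA in Affymetrix Power Tools and Rosetta Resolver, and deposited a linear intensity per probe set. They also deposited log10 ratios to the wild-type mean, limited to 2 in either direction, which served as an alternative. Tool versions and annotation release are not given in the sources used here. Array medians of the deposited intensity lay between 66.0 and 68.8, and precision is limited by the number of arrays.

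Log2 of the intensity was fitted with limma 3.58.1 in R 4.3.3 (tables read with version 1.17.8 of the data.table package), with 1 coefficient per genotype on all 21 arrays, no filter, and Benjamini-Hochberg adjustment over all 45037 probe sets. A single gene was annotated for 34945 of them, several for 932 and no gene for 9160, and each of 18193 genes was read at its brightest probe set. Figures were drawn with matplotlib 3.10.9, pandas 2.3.3 and numpy 2.4.6 in Python 3.11.15. The fit was tested on simulated data. Promoters came from RefSeq (GRCm38.p6), matched by gene symbol. Nothing says more of the arrays of a genotype than that they are different mice. The p-values rest on 1 estimate of spread per probe set, shared by all 21 arrays, which can differ from the spread within the 2 genotypes compared. Samples were grouped by the genotype in their labels, and replicate numbers were not used to pair samples in the main fit.

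Genes were named by rule: the 15 largest rises and 15 largest falls among called genes without overlap of arrays, the 10 largest of each that also lay beyond every wild-type array, up to 4 members per list with the largest change and all measured BMP members, the genes the study names and the transgenes, and the 10 largest interactions. Named outside this rule, after their values were seen, were Krt10, Trp63, Col17a1, Arg1, Ppbp, Mcpt2, Cpa3, Tent5c, Cpe, Malat1, Runx1, Sgk1, Kif21a, Ncmap, Tmem87a, Spink1, Cd4, Wls, Nkd2, Hspb1, Car3, Padi1, Gabrp, Ecm1, Calcb, Celf2, Foxp1, Pik3ca, Xist, Gkn1 and Tff1, the squamous list members that did not pass the test, and the genes called in opposite directions. The genes and lists were chosen with earlier results of these data known. Alternatives changed the threshold, test, arrays in the fit, normalisation, filter, variance model, value table, probe set rule and covariates, and left out arrays.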

Additional observations from a re-analysis of the deposited data

Results flagged for a closer look

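A difference between the effect of noggin with C2mE and without it was called for 202 genes (limma interaction, adjusted p under 0.05). The values below are the log2 change of K19-Nog/C2mE against K19-C2mE minus that of K19-Nog against wild-type. Among epithelial genes, Krt14 gave -6.34, Krt5 -4.56, Krt15 -4.57, Col17a1 -3.83, Cyp2f2 -6.61, Cbr2 -5.61, Calml3 -4.65, Padi1 -1.51, Gabrp -2.43 and Ecm1 -2.60. Genes already low in wild-type, such as Krt14 and Cyp2f2, had little room for a fall without C2mE. Among secretory and Wnt-related genes, Cpe gave -3.03, Wif1 -2.17 and Ephb3 -0.97. The trypsin inhibitor gene Spink1 was 1 of the 3 genes above 0, at 0.83, with 4.50, 4.71 and 4.54 in K19-Nog/C2mE against 4.18, 4.10 and 3.81 in K19-C2mE, and 3.60 and 3.61 in K19-Nog against 3.98, 3.83 and 3.84 in wild-type.

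Among neural, muscle and fat cell genes, Grp gave -4.88, Chl1 -3.90, Snap25 -2.66, Vip -3.53, Calcb -3.71, Hspb1 -3.78, Myh11 -2.30, Adipoq -5.40 and Car3 -3.61. The smooth muscle list was higher in K19-Nog than in wild-type for 20 of 22 members, beside 2.52% of all genes, with a median of 1.85. The part of the muscle wall in the differences between K19-Nog and wild-type was not tested.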

How the results depend on the processing

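Of 2154 probe sets called between K19-Nog/C2mE and K19-C2mE, the count became 496 with a 2-fold minimum, 6025 by the methods' t-test unadjusted and 3 after Benjamini-Hochberg, 912 with the 6 compared arrays only, 18 with a squamous covariate, 1213 with a Y-linked covariate and 456 without the Y-positive K19-C2mE arrays. For genes, 601 in the report, these counts were 201, 1878, 0, 186, 3, 355 and 201 in the same order. For the squamous list, 29 lower members in the report, the count was 0 by the adjusted t-test and 19 without the Y-positive arrays. It was 0 with the squamous covariate, which is the median of that list itself. For the interaction, 353 probe sets in the report, the count was 4228 by the methods' t-test unadjusted and 61 adjusted, 107 with dim probe sets left out, 66 with the squamous covariate, 208 without the Y-positive K19-C2mE arrays and 50 when the Y-positive wild-type arrays were left out too, an alternative chosen after seeing the data. Leaving out each array in turn gave 962 to 1858 probe sets, 249 to 664 genes, 25 to 32 squamous members and 150 to 500 interactions. Higher calls were 47.3% of called probe sets in the report, 34.9% with a 2-fold minimum, 60.3% with the compared arrays only, 19.1% without the Y-positive arrays and 16.7% with the squamous covariate.

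With the squamous covariate 9 of the 71 named genes called in the report changed sign, none of them called there: Krtdap gave 0.22, Rptn 1.19, Krt13 0.62, Krt1 1.91, Krt10 0.0054, Lor 0.95, Sprr3 0.68, Krt6b 0.062 and Ndufa4 0.018. The cause of these changes was not tested, and the covariate does not overlap between the genotypes. All of these genes but Ndufa4 belong to the list whose median is the covariate. Of the 71, 71 kept their call after centring array medians and with the log10 ratio table, 57 with the mean of all probe sets, 49 with the Y-linked covariate, 40 with the compared arrays only, 29 without the Y-positive arrays and 2 with the squamous covariate. With the replicate number as a block, 2724 probe sets, 719 genes, 29 squamous members and 304 interactions were called, and 65 of the 71 named genes kept their call. Deviations of same-numbered arrays correlated at 0.17, -0.20 and 0.14, and those of arrays with other numbers at -0.36 to 0.31. With 3 arrays per genotype these values cannot exclude a batch shared by arrays of the same number.

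Limits are the 3 arrays per tumor genotype and 2 K19-Nog arrays, Y-linked signal against the label on 2 K19-C2mE arrays, unstated ages and whole-tissue samples.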
